A study of Mus musculus with 134 samples.

Results

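Hprt and 7 other genes of purine metabolism, Aprt, Adk, Pnp, Ada, Gart, Paics and Ppat, were followed through every expression library of the series. They are 8 of the 25209 genes in the bulk count tables. Their rows were read in 54 bulk libraries and in 752 single cells from 16 experiments. The libraries were classed by their measured Hprt level, because the parental line is known for lacking this gene, and the members were chosen by name around it. A library was called low below 10 CPM (counts scaled to a common library total, with the ribosomal precursor Rn45s taken out of the total) and as high from 10 CPM, so the classes were selected on Hprt, and its levels are given as a description without a test.

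The study built SET-seq, which profiles cytoplasmic RNA and a histone mark of the chromatin from the same mouse embryonic stem cells, and applied it to cells dividing next to beads coated with the signalling protein Wnt3a. Every sample is labelled as E14 cells of strain 129/Ola, and the methods name ES-E14TG2a, grown on gelatin without feeders in serum with LIF. The bulk libraries form 27 conditions with 2 libraries each, all untreated. They comprise 28 in vitro libraries, made from extracted total RNA, 8 SET-seq libraries without antibody, 12 SET-seq libraries with an H3K4me3 or H3K27me3 antibody, 4 Aebp2 KO libraries and 2 ligation-based libraries.

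The in vitro libraries varied the temperature of tagmentation by the transposase Tn5 (16 or 37 °C) and its time (5, 10, 15 or 30 min), the Tn5 concentration (25, 50 and 100 ng/µl) or the input (300 ng, 3 ng and 30 pg). SET-seq used 10, 100, 1000 and 10000 wild-type (WT) cells without antibody, and 100, 1000 and 10000 with one. Aebp2 is a subunit of the Polycomb complex PRC2. KO1 and KO2 were CRISPR/Cas9 clones made with different guides and were profiled by H3K27me3 SET-seq. Each difference of KO against WT thus rests on 2 clones of 1 labelled line. The single cells, also labelled E14, had been treated with Wnt3a beads and picked as the daughter proximal or distal to the bead.

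A cell can obtain purine nucleotides by recycling free bases and nucleosides, which is called salvage, or by building inosine monophosphate (IMP) from an activated ribose, PRPP, which is called de novo synthesis. Hprt returns hypoxanthine and guanine to IMP and GMP, Aprt does the same for adenine, and Adk phosphorylates adenosine. Ada and Pnp break nucleosides down and so supply the bases that Hprt uses, whereas Ppat, Gart and Paics catalyse steps of the de novo route, with Ppat at its first committed step. E14TG2a was isolated by selection with a toxic purine analogue and carries a deletion over the start of Hprt, which is why the line is used as Hprt-deficient.

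In mm9, the build of the count tables, Hprt lay on chromosome X from 50341255 to 50374837 on the plus strand, with 9 exons and 1349 exon bases. The last exon held 44.0% of these bases. The counts cover the whole gene, so they cannot tell reads from different exons apart. Paics (chromosome 5, 77380327 to 77396534, plus strand) and Ppat (chromosome 5, 77342274 to 77380603, minus strand) start head to head and share 277 exon bases. Reads in that stretch were assigned to neither gene, as counting used no strand.

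The 250 bases before the RefSeq start (GRCm38.p6) are shown for Hprt, whose level separates the libraries, for Aprt, its closest counterpart in salvage, and for the head-to-head pair Paics and Ppat. Each is written 5′ to 3′ on the strand of its gene. Capitals mark GGGCGG or its complement CCGCCC, the core of the GC box, searched on both strands.
Hprt, chrX:52987828-52988077, plus strand: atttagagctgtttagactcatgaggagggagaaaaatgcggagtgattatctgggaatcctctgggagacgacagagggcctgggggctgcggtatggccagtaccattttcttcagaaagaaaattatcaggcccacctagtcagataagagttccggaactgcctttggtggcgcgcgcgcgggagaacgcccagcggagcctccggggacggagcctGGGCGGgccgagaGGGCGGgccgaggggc
Aprt, chr8:122576908-122577157, minus strand: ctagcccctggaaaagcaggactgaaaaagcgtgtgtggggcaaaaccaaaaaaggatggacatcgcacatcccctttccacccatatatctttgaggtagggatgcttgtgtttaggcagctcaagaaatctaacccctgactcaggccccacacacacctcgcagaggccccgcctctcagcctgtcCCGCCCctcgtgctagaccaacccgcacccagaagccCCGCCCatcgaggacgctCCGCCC
Paics, chr5:76951052-76951301, plus strand: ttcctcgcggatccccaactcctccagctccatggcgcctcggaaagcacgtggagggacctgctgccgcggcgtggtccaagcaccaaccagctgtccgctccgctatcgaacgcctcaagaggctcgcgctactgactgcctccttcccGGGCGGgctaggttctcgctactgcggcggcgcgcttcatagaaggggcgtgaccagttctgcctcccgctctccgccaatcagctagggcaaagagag
Ppat, chr5:76951579-76951828, minus strand: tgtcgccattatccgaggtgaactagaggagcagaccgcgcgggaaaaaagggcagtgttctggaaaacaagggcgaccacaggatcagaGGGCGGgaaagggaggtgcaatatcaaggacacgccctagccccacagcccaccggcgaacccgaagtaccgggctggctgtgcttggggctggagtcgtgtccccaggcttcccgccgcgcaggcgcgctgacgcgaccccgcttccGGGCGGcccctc

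The GC box core occurred 3 times before Aprt, 2 times before Hprt and before Ppat, and 1 time before Paics. It was also present before Adk, Pnp, Ada and Gart, so all 8 genes held it. Among all 32851 promoters of this length, 32.7% did. The letters TATAAA, on either strand, were in none of the windows of the 8 genes, and in 12.4% of all promoters.

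Counts without Rn45s ranged from 188275 to 16888686 per bulk library. Rn45s took 1.54% of all counts in the library with the least and 84.6% in that with the most. All 8 markers of pluripotent cells were detected in each kind of bulk library, and their summed level was 3505 to 8536 CPM. The 10 fibroblast markers together did not exceed 35.7 CPM.

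**Figure D1:**
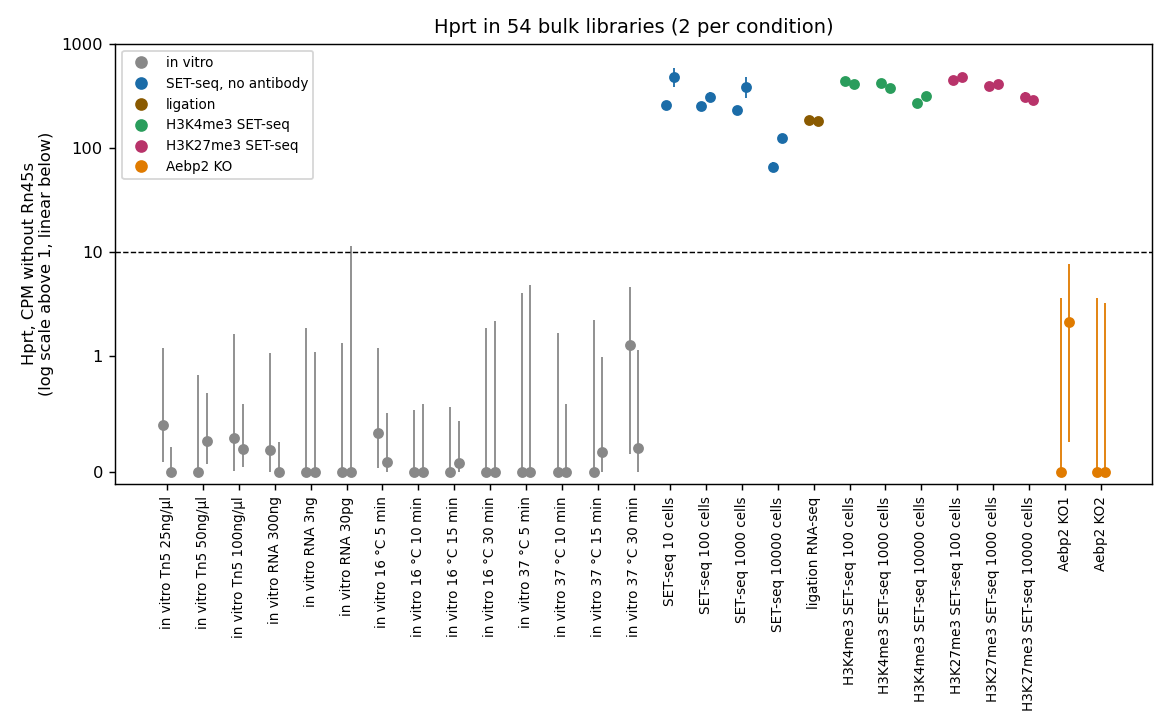
Hprt level in each of the 54 bulk libraries (CPM without Rn45s, on an axis that is linear below 1 and logarithmic above), with conditions along the x axis and 1 point per library, coloured by kind of library. Vertical lines are exact 95% Poisson intervals of the counts, and the dashed line is the limit of 10 CPM. The in vitro and KO libraries lie at 2.14 CPM or lower, and the WT SET-seq and ligation-based libraries at 66.2 CPM or higher.

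Hprt separated the bulk libraries without values in between. It was low in 32 libraries and high in 22. The highest low values were 1.29 CPM (37 °C for 30 min, replicate 1) and 2.14 CPM (KO1 replicate 2), each from 2 counts, and the lowest high values were 66.2 and 124.7 CPM in the SET-seq libraries of 10000 cells. The same 32 and 22 libraries resulted with limits of 5 or 20 CPM, with Rn45s in the total and with TMM-scaled CPM.

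All 28 in vitro libraries were low. They held 20 Hprt counts in 165863951 counts, which is 0.121 CPM with an exact 95% Poisson interval of 0.0737 to 0.186 CPM, and 17 of them had no Hprt count. In the shallowest of these, 30 pg replicate 2, the two-sided exact interval of that count reached 11.4 CPM, above the limit, while in the other 27 it stayed below. The 4 KO libraries were low too. KO1 had 0 and 2 Hprt counts and KO2 had 0 and 0, in 935126 to 1124026 counts per library, so each count of 0 allows at most 2.67 to 2.98 CPM (3 counts). These limits and intervals cover counting error only.

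All 20 WT SET-seq libraries were high, with Hprt from 66.2 to 485 CPM and a median of 348 CPM. The ligation-based libraries held 184 and 181 CPM. H3K27me3 SET-seq of 10000 WT cells, the libraries to which the KO clones were compared, held 310.3 and 291 CPM. Pooled, they exceeded the KO clones 605-fold, with a 95% interval of 167 to 5000, from 1353 against 2 counts. SET-seq of 10000 cells without antibody exceeded the in vitro libraries tagmentated at 37 °C for 5 min at least 51.5-fold, and the ligation-based libraries did so at least 101-fold, taking 3 counts over both in vitro libraries as the floor. So the WT SET-seq and the ligation-based libraries, although labelled with the same cell line, carried reads of a gene of which the line is held to be deficient.

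Within WT SET-seq the Hprt level also varied. The SET-seq libraries without antibody held 259 and 478 CPM with 10 cells, 256 and 312 CPM with 100, 230.0 and 384 CPM with 1000, and 66.2 and 124.7 CPM with 10000. The 10000-cell pair lay below the other 18 WT SET-seq libraries. Libraries with an antibody held 273 to 485 CPM. In bulk samples, fewer cells that express a gene and less RNA per cell cannot be told apart, and whether Hprt reads in high libraries came from all cells or from some was not tested.

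Phf6, a chromatin-associated protein encoded 31.1 kb before Hprt, did not separate the libraries as Hprt did. It ranged from 0 to 27.8 CPM over the in vitro libraries and from 0 to 71.1 CPM in WT SET-seq, had a median of 24.2 CPM in the KO, and held 54.8 and 55.6 CPM in the ligation-based libraries, above every in vitro library. In KO against WT, 4 of the 8 neighbours had enough counts to be tested, and 0 passed at an adjusted p below 0.05 in edgeR's quasi-likelihood test. Of all genes tested there, 44.4% passed. Phf6 itself differed by -0.05 ± 0.34 (log2 fold change and SE), with an adjusted p of 0.914. In SET-seq against in vitro 3 of 5 tested neighbours were lower and 0 higher, and Phf6 was not called. In that comparison 49.8% of all tested genes were called (24.9% higher and 24.9% lower). In ligation against in vitro 3 of 6 were higher, Phf6 among them by 2.03 ± 0.30 (adjusted p = 1.3e-05), and 2 lower. There 58.1% of all tested genes were called (30.2% higher and 27.9% lower). The counts of neighbours are descriptions and do not set them apart.

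The order of the other members was set per length, as RPKM, the CPM divided by the kilobases of exon (mean of the libraries). In WT SET-seq Aprt was highest at 1285 RPKM, followed by Paics at 403, Hprt at 248, Gart at 98.2, Pnp at 55.2, Ppat at 55.1, Ada at 33.6 and Adk at 29.6 RPKM. In the in vitro libraries Aprt stood at 622 RPKM, Paics at 303, Gart at 138, Ppat at 52.4, Adk at 18.9, Ada at 11.9, Pnp at 11.8 and Hprt at 0.0938 RPKM. Pnp and Ppat, and Ada and Adk, did not differ beyond their spread in the first order, nor did Ada and Pnp in the second. In the KO libraries Aprt and Paics held 570 and 618 RPKM, and Ada only 5.08 RPKM.

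**Figure D2:**
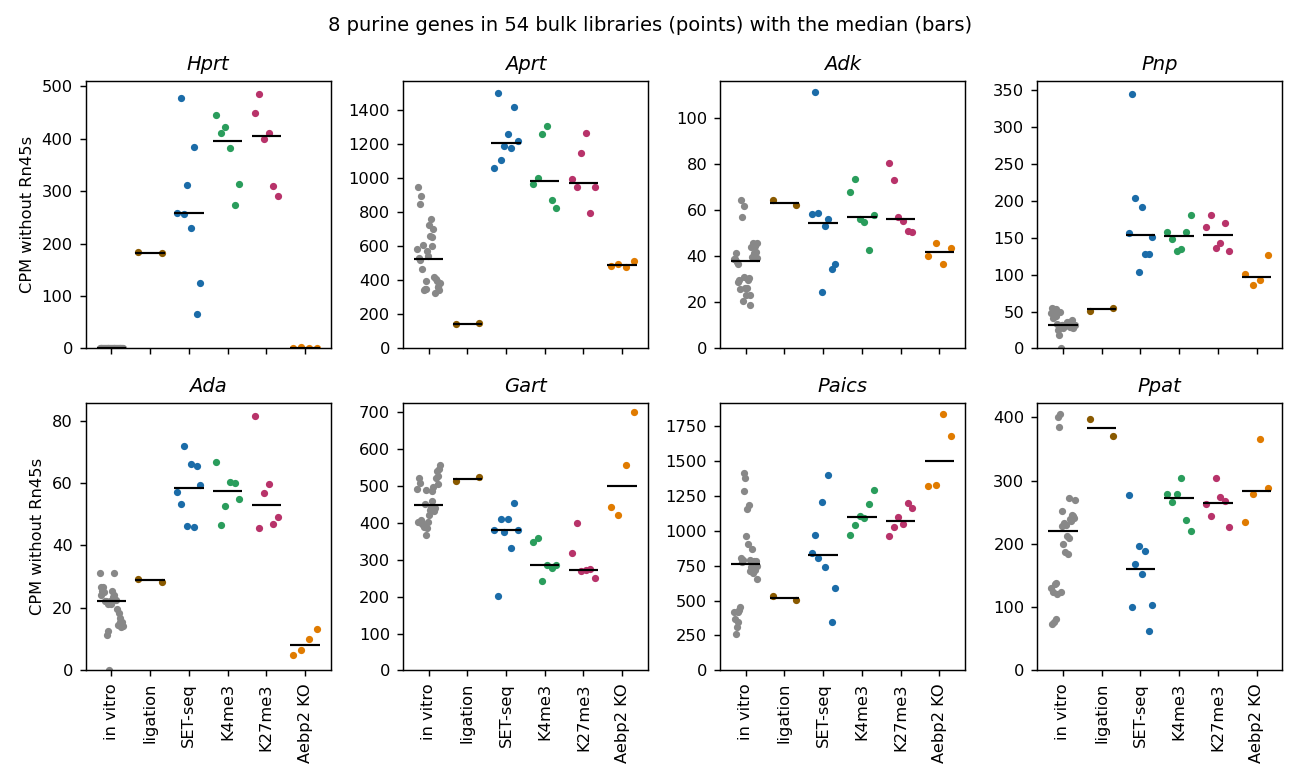
Level of each of the 8 genes in each bulk library (CPM without Rn45s, on linear axes that start at 0), with 1 panel per gene, kinds of library along the x axis, 1 point per library and a horizontal bar at the median. Hprt falls to 0 or close to it in the in vitro and KO libraries, whereas Aprt, Gart and Paics stay above 100 CPM in all 54.

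The first question was whether salvage or de novo genes differed where Hprt differed. Hprt was high in one group and low in the other in 3 comparisons of labelled groups. These were WT against KO, SET-seq of 10000 cells against the in vitro libraries at 37 °C for 5 min, and ligation-based libraries against the same in vitro libraries. In 4 further comparisons Hprt was low in both groups (KO1 against KO2, Tn5 amounts, 300 ng, and 37 against 16 °C), and in 1 it was high in both (antibody against none). Each was fitted across all genes with edgeR's quasi-likelihood test, and a gene was called at a Benjamini-Hochberg adjusted p below 0.05. Where groups are said to be apart or not to overlap, this describes the values. How many of all genes do so was not counted, so it sets no member apart. The in vitro libraries at 37 °C for 5 min serve as the reference in 4 of these comparisons and were shallow, with 754239 and 910475 counts.

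The Aebp2 KO libraries had more Gart and Paics and less Ada and Aprt than WT. Hprt was low in both clones and high in the WT libraries compared, so Aebp2 genotype, clone and Hprt class cannot be told apart here. The labels give no cell number for the KO libraries, whereas the WT libraries used 10000 cells. Nor do they say whether both were made together. Cell input and library batch thus cannot be told apart from these either. Aebp2 itself, the targeted gene, stood at 65.5 and 76.0 CPM in WT, 15.7 and 15.0 CPM in KO1 and 49.7 and 30.2 CPM in KO2. All 4 KO values lay below these WT libraries, and Aebp2 fell by 1.2 ± 0.36 on the log2 scale with an adjusted p of 0.0149 (edgeR). The call was lost without WT replicate 2 (-1.08, adjusted p = 0.131) and against SET-seq of 10000 WT cells without antibody (-0.45, adjusted p = 0.319), in which Aebp2 stood at 34.5 and 36.4 CPM. KO2 replicate 1 lay above these and above H3K27me3 SET-seq of 100 WT cells, at 38.9 and 34.7 CPM. The RNA level of Aebp2 thus did not set KO2 apart from all WT libraries. The paper examined its clones by Western blot and by Sanger sequencing, which RNA counts do not address. Rn45s took 48.8% to 56.7% of the counts in KO libraries against 21.9% and 23.4% in WT, and its part in the differences was not tested.

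Among the salvage genes, Aprt held 484 and 495 CPM in KO1 and 480.1 and 517 CPM in KO2, against 795 and 951 CPM in WT. The groups did not overlap, and Aprt fell by 0.68 ± 0.16 on the log2 scale (edgeR, adjusted p = 0.00304). Of all genes tested in this comparison 44.4% were called (22.0% higher and 22.5% lower in KO), and 4 of the 7 members other than Hprt, with 2 higher and 2 lower. Under another rule, an unadjusted p below 0.05 with a log2 fold change beyond 1, these shares were 29.3%, 14.1% and 15.1%, and Ada and Gart alone of the members met it. Without WT replicate 2, Aprt fell by 0.55 with an adjusted p of 0.108. Adk held 36.8 to 46.0 CPM in KO and 50.9 and 50.7 CPM in WT, a difference of -0.14 ± 0.22 with an adjusted p of 0.618.

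Ada, which deaminates adenosine, changed most. It stood at 4.91 and 6.42 CPM in KO1 and at 9.94 and 13.3 CPM in KO2, from 5 to 15 counts, against 46.9 and 49.2 CPM in WT. Every KO library lay below every WT library, and Ada fell by 2.30 ± 0.34 on the log2 scale, which is 4.91-fold (edgeR, adjusted p = 0.000138). Pnp, which cleaves inosine and guanosine to the bases, held 85.6 to 126.3 CPM against 132.4 and 169.7 CPM. Its difference was -0.41 ± 0.21 with an adjusted p of 0.125, and 0.0153 when all 6 H3K27me3 libraries served as WT.

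Of the de novo genes Gart and Paics were higher in KO, and Ppat did not pass. Gart, a trifunctional enzyme of early steps, held 443 and 421 CPM in KO1 and 558 and 701 CPM in KO2, against 274 and 251 CPM in WT. The groups were apart, and Gart rose by 1.17 ± 0.23 on the log2 scale (edgeR, adjusted p = 0.00105). Against SET-seq of 10000 WT cells without antibody, in which Gart stood at 454 and 379.7 CPM, the difference was 0.24 with an adjusted p of 0.417, whereas Ppat was then higher in KO by 1.72 (adjusted p = 4.38e-05). Paics held 1319.6 and 1329 CPM in KO1 and 1836 and 1674 CPM in KO2, against 1202 and 1162 CPM in WT. It rose by 0.53 ± 0.19 with an adjusted p of 0.0381. That call was lost in 6 alternatives, among them the fit without a filter on low counts (0.0896), the replicate block (0.0720) and the fits without WT replicate 1 (0.180) or WT replicate 2 (0.227). Ppat held 234 to 366 CPM against 267 and 226 CPM, a difference of 0.40 ± 0.20 with an adjusted p of 0.121.

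**Figure D3:**
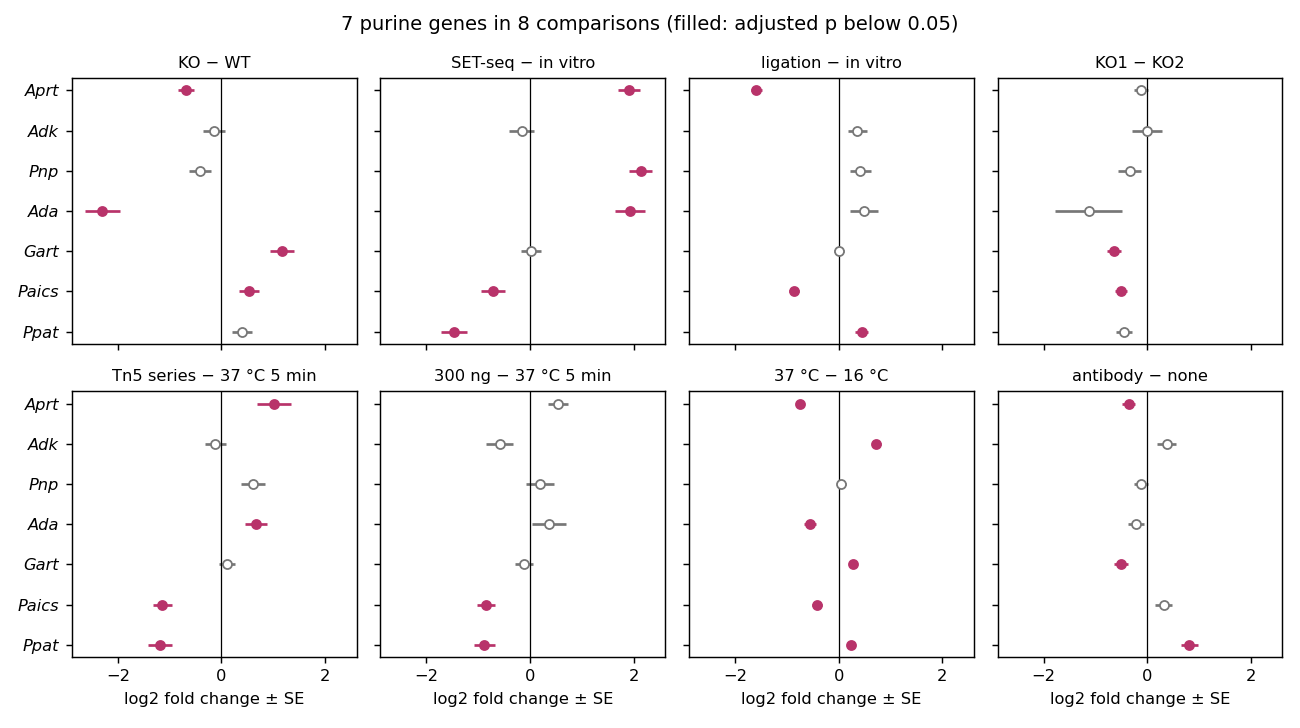
Log2 fold change of the 7 members other than Hprt in each of the 8 bulk comparisons, with 1 panel per comparison, bars of 1 SE, and filled points where the adjusted p was below 0.05. Hprt differed in class in the panels KO against WT, SET-seq against in vitro and ligation against in vitro. Among these, Aprt lies below 0 for KO and ligation and above 0 for SET-seq, and Gart lies above 0 for KO and near 0 for the other two.

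The rest of the pathway was read from lists. Of the 6 de novo genes 3 rose and 0 fell in KO, with a median log2 fold change of 0.47 against 0.00 over all genes. In this comparison 22.0% of all genes rose, 22.5% fell and 44.4% were called, so the counts of these short lists are descriptions and set no list apart. Besides Gart and Paics the de novo gene that rose was Pfas, at 383 to 499 CPM in KO and 186 and 201 CPM in WT (1.38 ± 0.17, edgeR, adjusted p = 2.88e-05). Of the 4 salvage genes other than Hprt 2 fell and 0 rose, with a median of -0.41. They were Aprt and Dguok, the mitochondrial deoxyguanosine kinase, at 9.62 to 17.7 CPM against 50.1 and 54.1 CPM (-1.65 ± 0.28, adjusted p = 0.000374).

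Of 6 tested catabolic genes 1 rose and 2 fell, with a median of -0.56. The cytosolic nucleotidases went opposite ways, Nt5c2 by 1.97 ± 0.22 and Nt5c by -1.74 ± 0.31 (edgeR, adjusted p = 1.71e-05 and 0.00059). Of the 4 tested genes that lead from IMP to AMP and GMP, Gmps rose by 0.97 and Impdh1 fell by 0.60 on the log2 scale, and the median was 0.53. The Impdh1 call was lost in 9 alternatives, among them DESeq2 (adjusted p = 0.109) and the replicate block (0.0738), and the Gmps call in 2, one of them without WT replicate 2 (0.0532). None of the 3 tested genes of PRPP synthesis was called by edgeR, where their median was -0.29.

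Genes of the lists outside purine synthesis were read beside the same 44.4% of all genes called. Of 6 folate one-carbon genes, which supply formate to the de novo route, 3 rose (Mthfd1l by 1.30, Shmt2 by 1.05 and Mthfd1 by 1.01) and Mthfd2 fell by 0.83, with a median of 0.62. Of 6 genes of pyrimidine synthesis, Cad rose by 1.74 and Ctps2 by 1.67, with a median of 0.21. Of 3 tested nucleoside carriers, Slc29a2 rose by 0.78 and Slc29a1 by 0.57. Both calls were lost in edgeR without a filter on low counts (adjusted p = 0.135 and 0.0940) and with 1 fit over all 54 libraries (0.271 and 0.115). Against SET-seq of 10000 WT cells without antibody these 2 carriers were lower in KO, at -0.73 and -0.78, and Shmt2 (0.012, adjusted p = 0.969), Mthfd1 (0.46, 0.0914) and Mthfd2 (-0.61, 0.0669) were not called by edgeR.

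The labelled cell type was checked in the same libraries. Of 8 markers of pluripotent cells 4 fell in KO and 0 rose, where 22.5% of all tested genes fell and 22.0% rose. Klf4 fell by 2.56 on the log2 scale, Tdgf1 by 1.02, Zfp42 by 0.75 and Nanog by 0.62. The Nanog call was lost with the replicate block (edgeR, adjusted p = 0.0626). Against SET-seq of 10000 cells without antibody Nanog was higher in KO by 1.09. The summed level of the 8 markers was 3505 to 4059 CPM in KO and 5090 to 5571 CPM in H3K27me3 SET-seq of WT cells. In SET-seq of WT cells without antibody it was 3514 to 5869 CPM, which overlaps the range in KO. Of 10 fibroblast markers 1 could be tested, and it was not called by edgeR. The part of these markers in the changes of the purine genes was not tested.

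**Figure D4:**
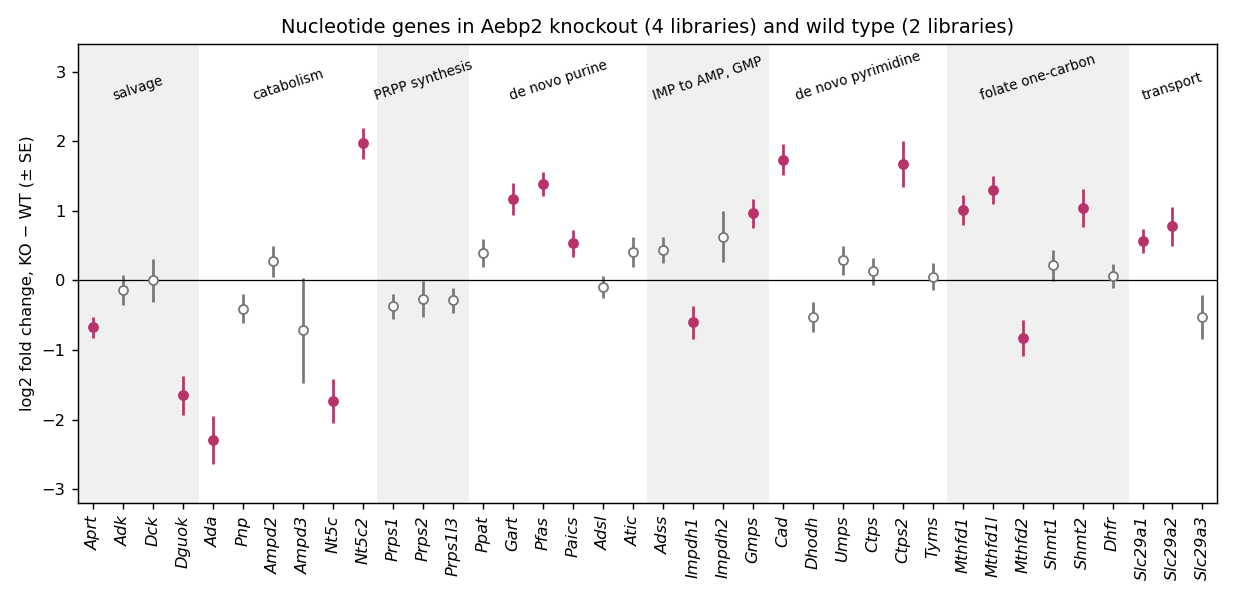
Log2 fold change of KO against WT for every tested gene of the purine, pyrimidine, folate and carrier lists, with 1 point per gene, bars of 1 SE, filled points where the adjusted p was below 0.05, and grey and white bands that separate the lists. The horizontal line is 0. Gart, Pfas, Cad and Nt5c2 are among the genes above 1, and Ada, Nt5c and Dguok lie below -1.

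The KO clones, both low in Hprt, differed from each other in de novo genes. Gart was lower in KO1 than in KO2 by 0.64 ± 0.14 and Paics by 0.50 ± 0.11 on the log2 scale (edgeR, adjusted p = 0.00311 and 0.00406). These were 2 of 7 members, where 10.0% of all tested genes were called (5.20% higher and 4.83% lower in KO1). Both calls were lost without either of the KO1 libraries. Ada, at 5 to 15 counts per library, differed by -1.13 ± 0.65 with an adjusted p of 0.297.

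SET-seq of 10000 cells, high in Hprt, had more Pnp, Ada and Aprt and less Ppat than the in vitro libraries tagmentated at the same temperature and time. Of the 7 members 3 were higher and 2 lower in SET-seq, where 49.8% of all tested genes were called (24.9% higher and 24.9% lower). The comparison sets cytoplasmic RNA of lysed cells against extracted total RNA, and this difference and that of Hprt cannot be told apart. Rn45s took 19.6% and 14.3% of the counts in SET-seq and 33.0% and 36.0% in vitro.

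Aprt held 1418 and 1221 CPM in SET-seq and 422 and 324 CPM in vitro. The groups were apart by more than either's spread, and Aprt was higher by 1.91 ± 0.22 on the log2 scale (edgeR, adjusted p = 0.000104). Adk, at 34.3 and 36.8 CPM against 43.9 and 39.8 CPM, differed by -0.16 ± 0.24 with an adjusted p of 0.601. Ada held 65.5 and 59.4 CPM against 19.8 and 14.6 CPM (1.93 ± 0.28, adjusted p = 0.000428). Pnp held 128 and 151 CPM against 36.2 and 30.5 CPM (2.13 ± 0.22, adjusted p = 6.82e-05). Both catabolic genes were thus about as far apart as Aprt.

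The de novo genes did not move together. Ppat held 62.7 and 104 CPM in SET-seq and 209.8 and 273 CPM in vitro, lower by 1.47 ± 0.24 (edgeR, adjusted p = 0.000858). Paics held 345 and 590 CPM against 739 and 868 CPM, a difference of -0.72 ± 0.24 with an adjusted p of 0.0286. The Paics call was lost in 3 of the 4 fits that left out a library, and against the 300 ng libraries the difference was 0.01 with an adjusted p of 0.968. Gart held 454 and 379.7 CPM against 433 and 440.2 CPM, where the difference was 0.02 ± 0.19 with an adjusted p of 0.942. With the 300 ng libraries as reference Aprt, Ada, Pnp and Ppat kept their direction and their call, at 1.26, 1.45, 1.83 and -0.71. Other WT SET-seq libraries were not tested against these references. All 8 libraries without antibody ranged from 345 to 1396 CPM for Paics and from 62.7 to 277 CPM for Ppat. The 12 with an antibody held 958 to 1288 CPM and 220 to 304 CPM.

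The ligation-based libraries, the other kind that was high in Hprt, share their reference with the SET-seq comparison. Library protocol and Hprt class cannot be told apart here either. Aprt was lower, not higher. It held 144 and 149 CPM against 422 and 324 CPM, a difference of -1.59 ± 0.11 (edgeR, adjusted p = 4.33e-10). Paics held 534 and 504 CPM against 739 and 868 CPM (-0.86 ± 0.10, adjusted p = 7.4e-07). Ppat held 397 and 370.1 CPM and was higher by 0.44 ± 0.12 with an adjusted p of 0.00365, a call that was lost without either ligation-based library. These 3 of 7 members stand beside 58.1% of all genes called (30.2% higher and 27.9% lower).

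The other 4 members did not pass against the ligation-based libraries. Gart held 513 and 524 CPM, a difference of 0.01 ± 0.10 with an adjusted p of 0.926. Adk, at 64.6 and 62.3 CPM, differed by 0.36 ± 0.18 (adjusted p = 0.104), Ada, at 29.3 and 28.3 CPM, by 0.49 ± 0.27 (0.131), and Pnp, at 51.0 and 54.9 CPM, by 0.42 ± 0.21 (0.0915, all edgeR). Set side by side, with the Hprt-high group taken first in each, Aprt was higher against KO, higher in SET-seq and lower in the ligation-based libraries. Gart was lower against KO and was not called in the other 2. Paics was the one member called in the same direction in all 3, lower on the Hprt-high side each time. Its calls against KO and in SET-seq were lost in the alternatives given above, however. The SET-seq and ligation comparisons also share their reference libraries. For SET-seq the direction holds for the pair of 10000 cells without antibody. The 12 SET-seq libraries with an antibody, also high in Hprt, held 958 to 1288 CPM of Paics, above both reference libraries.

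Members were also called where Hprt was low in both groups. In the Tn5 libraries 4 of 7 members differed from the 37 °C, 5 min libraries, with 28.7% of all genes called (14.1% higher and 14.6% lower). Paics held 260 to 421 CPM, with a median of 354, and was lower by 1.14 ± 0.19, and Ppat held 73.8 to 136 CPM, with a median of 102, and was lower by 1.19 ± 0.23 (edgeR, adjusted p = 0.00208 and 0.00462). Both calls were lost without replicate 2 of the reference. Aprt held 517 to 946 CPM, with a median of 717. Its 3 replicate 1 libraries lay at 517, 532 and 583 CPM and its 3 replicate 2 libraries at 851, 894 and 946 CPM. Aprt was higher by 1.02 ± 0.32 with an adjusted p of 0.038, and Ada by 0.67 ± 0.22 with an adjusted p of 0.0408. The Aprt call was lost in 5 alternatives and the Ada call in 11. Same-numbered libraries deviated together in this comparison, with correlations up to 0.880. The 6 Tn5 libraries are thus not 6 independent replicates, as the fit takes them to be. With a replicate block the 4 calls were kept, and Pnp was called too.

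The 300 ng libraries gave the same head-to-head pair as the Tn5 libraries, with which they share the reference. Paics held 429 and 453 CPM and was lower by 0.85 ± 0.18, and Ppat held 138 and 121 CPM and was lower by 0.88 ± 0.20 (edgeR, adjusted p = 0.00135 and 0.00313). These were 2 of 7 members, where 19.6% of all genes were called (4.55% higher and 15.0% lower). Neither call was kept without replicate 2 of the reference. Aprt held 467 and 611 CPM, a difference of 0.55 ± 0.20 with an adjusted p of 0.0512.

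Temperature moved 6 of the 7 members in the 16 in vitro libraries, where 64.6% of all genes were called (32.3% higher and 32.3% lower at 37 °C). Aprt held 545 to 762 CPM at 16 °C, with a median of 659, and 324 to 422 CPM at 37 °C, with a median of 375. No library at 37 °C reached one at 16 °C, and Aprt fell by 0.74 ± 0.08 on the log2 scale (edgeR, adjusted p = 4.68e-09). Adk went the other way, from 18.9 to 31.1 CPM at 16 °C to 39.3 to 45.9 CPM at 37 °C, and rose by 0.73 ± 0.09 (adjusted p = 4.04e-08). Ada held 21.3 to 31.1 CPM at 16 °C and 13.9 to 19.8 CPM at 37 °C, and fell by 0.56 ± 0.11 (adjusted p = 8.53e-05).

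The groups of Aprt, Adk and Ada did not overlap, whereas those of the de novo genes did. The share of all genes without overlap was not counted here either. Paics fell by 0.42 ± 0.09, Gart rose by 0.27 ± 0.07 and Ppat rose by 0.24 ± 0.06 at 37 °C (edgeR, adjusted p = 0.00032, 0.00156 and 0.00162). Pnp differed by 0.05 ± 0.08 with an adjusted p of 0.699. The difference of Aprt between temperatures, in libraries with hardly an Hprt read, was about as large as that of KO against WT.

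WT SET-seq libraries with and without an antibody, all high in Hprt, were compared at 100, 1000 and 10000 cells, the numbers that both have, so the 10-cell libraries were left out. They differed in 3 of 7 members, where 37.8% of all genes were called (19.1% higher and 18.7% lower). Cell number was part of the fit. Ppat held 220 to 304 CPM with an antibody, with a median of 267, and 62.7 to 197 CPM without. These groups did not overlap, although a 10-cell library without antibody reached 277 CPM, and Ppat was higher by 0.81 ± 0.17 (edgeR, adjusted p = 0.000488). Gart, at 243 to 401 CPM against 332 to 454 CPM, was lower by 0.51 ± 0.13, and Aprt, at 795 to 1307 CPM against 1106 to 1418 CPM, by 0.36 ± 0.12 (adjusted p = 0.00315 and 0.025). The Aprt call was lost in 3 alternatives. Over the compared libraries Hprt held 273 to 485 CPM with and 66.2 to 384 CPM without an antibody.

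Likeness to Hprt was measured as Pearson's r of log2(CPM + 1) over the means of the 27 conditions, among 11548 genes with at least 5 CPM in at least 2 conditions. It is a description, since the conditions share kinds of library and depth. The 5 genes most like Hprt were Xlr3a (0.973), an X-linked gene of the Xlr family, Zfp365 (0.968), Perp (0.967), Adi1 (0.963), an enzyme of methionine salvage, and Saa3 (0.962). None was a gene of purine metabolism, and Spearman's correlation shared 0 of these 5. Of the members, Pnp had an r of 0.869 (rank 148), Ada of 0.836 (rank 262), Adk of 0.688, Aprt of 0.561, Paics of 0.249, Ppat of 0.130 and Gart of -0.721.

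These 5 genes were picked for likeness to Hprt in the same libraries, so a match to its classes is no separate result. Perp, a plasma membrane protein, did not overlap between the classes. It held 0 to 5.25 CPM in vitro, 0.89 to 3.92 CPM in KO, 16.9 to 127.5 CPM in WT SET-seq and 72.2 and 75.2 CPM in the ligation-based libraries. Nor did Zfp365 overlap, at most 12.4 CPM in vitro and in KO and at least 15.9 CPM elsewhere, or Saa3, at most 1.99 and at least 5.83 CPM. How many of all ranked genes do so was not counted. Xlr3a stood at 0 to 2.40 CPM in vitro and 0 to 1.07 CPM in KO, and at 0 to 35.2 CPM in WT SET-seq with a median of 24.9 CPM. It held 4.19 and 4.46 CPM in the ligation-based libraries, lower than in most WT SET-seq libraries, where Hprt was high in both.

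The single cells were summed per experiment, over cells with more than 1000 and fewer than 5000 genes. This kept 545 of 752 cells. Reads, not molecules, were counted, and 80 of 96 cell barcodes occur in more than 1 experiment. In H3K27me3 experiments 8, 9 and 10 the 7 measured pluripotency markers summed to 1.503, 0.704 and 3.13 CPM, against 341 to 9938 CPM in the other 13 experiments, so the labelled cell type was not supported by its markers there. H3K4me3 experiment 1 kept 4 cells.

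Hprt reached 10 CPM in 8 of the 16 experiments, and in 10 when all cells were summed. The class thus depended on the filter on cells in H3K27me3 experiment 1, where Hprt went from 0.0963 to 49.4 CPM over all 16 cells, and in experiment 2, where it went from 2.97 to 183 CPM. The values that follow are over the cells that passed. In H3K27me3 experiments 1 to 7 it stood at 0.0963, 2.97, 154, 6.11, 33.0, 65.5 and 32.8 CPM, and in experiments 8 to 10 at 0.564, 0 and 0.184 CPM. In H3K4me3 experiments 1 to 6 it stood at 0, 379, 6.07, 21.0, 124 and 99.0 CPM. Experiments of the same antibody thus fell into both classes by the measured level, but a low class here need not concern Hprt itself. In H3K27me3 experiments 8 to 10 and in H3K4me3 experiment 1 none of the members reached 10 CPM. H3K4me3 experiment 3 held 65 Hprt reads in 15 cells. It and H3K27me3 experiment 4 would be high with a limit of 5 CPM. For H3K27me3 experiment 4, 1 Hprt read in 163624 counts does not fix the class, since 3 counts would be 18.3 CPM. Hprt reads were found in 164 of the 545 cells. In H3K27me3 experiment 3, 97.6% of them came from 1 cell, and in H3K4me3 experiment 2, the highest of all, 19.5% did.

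**Figure D5:**
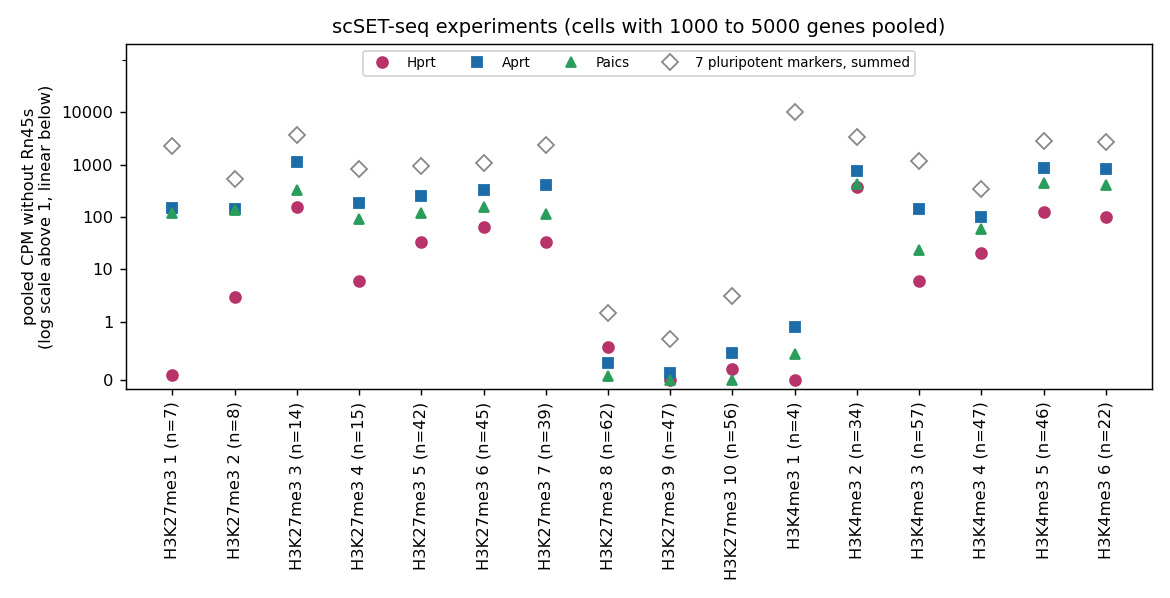
Level of Hprt, Aprt and Paics and summed level of 7 pluripotency markers in each scSET-seq experiment (CPM without Rn45s over the cells that passed, on an axis that is linear below 1 and logarithmic above), with 1 symbol per gene and the number of cells below each experiment. H3K27me3 experiments 8 to 10 hold neither these genes nor the markers above 10 CPM, and Hprt reaches 10 CPM in 8 of 16 experiments.

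The other members were present in most experiments with markers. Aprt, Gart and Paics each reached 10 CPM in 12 of 16 experiments, and failed to in H3K27me3 experiments 8 to 10 and in H3K4me3 experiment 1. Aprt was between 102 and 1099 CPM in those 12, at 150 CPM in H3K27me3 experiment 1 and 143 CPM in experiment 2, where Hprt was low in the cells that passed, and at 741 CPM in H3K4me3 experiment 2, where Hprt was highest. Over all cells of H3K27me3 experiment 2 the order turned, with Aprt at 89.5 CPM below Hprt at 183 CPM. Gart was highest in H3K27me3 experiment 1 at 320 CPM, from 7 cells in which Hprt had 1 read in 10386665. Over all 16 cells of that experiment Gart stood at 174 CPM and Hprt at 49.4 CPM, from 1326 reads of which 97.4% came from 1 cell. Pnp reached 10 CPM in 10 experiments, Adk and Ppat in 8 each and Ada in 6.

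Position relative to the bead was compared over 14 experiments with at least 3 cells on each side, with the experiment as a block. None of the 7 members was called, and 0 of the 4885 genes tested (0%) were called by edgeR, with 181 at an unadjusted p below 0.05, 24 called by DESeq2 and 0 by limma. Ada had the largest difference, at -1.89 for proximal against distal cells, with an unadjusted p of 0.104, followed by Adk at 1.69 (0.102) and Gart at 1.43 (0.0963, all edgeR, adjusted p = 0.998). In H3K27me3 experiment 3 Hprt stood at 336 CPM in proximal and 6.50 CPM in distal cells, but 97.6% of its reads there came from 1 cell. In H3K4me3 experiment 2 it stood at 325 and 438 CPM.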

How the data were processed

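For the bulk libraries the authors trimmed reads with Trim Galore 0.6.4, aligned them to mm9 with STAR 2.5.4b and, per the file headers, counted read pairs on exons of 25209 genes with featureCounts 2.0.0, without strand and leaving out multi-mapping reads. These raw counts are what was deposited. For single cells the authors deposited raw read counts on exons and introns from zUMIs.

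CPM leave out Rn45s. Comparisons used edgeR 4.0.16 (TMM, filterByExpr, quasi-likelihood test, adjusted p below 0.05 over all genes). SE was taken as the absolute log2 fold change over the square root of F. Replicates are separate libraries and may be technical, so p-values measure the spread between libraries. Same-numbered libraries deviated together in some contrasts only, most in that of Tn5 amounts, with correlations up to 0.880. The main fits used no block in any contrast, so the p-values for Tn5 amounts ignore this pairing. Alternatives were DESeq2 1.42.0, its size factors, no filter, a replicate block, 1 fit over 54 libraries, Rn45s kept, other WT libraries, another call rule and each library left out. limma 3.58.1 was an alternative for cells. Named are the members, up to 4 called genes per list with the largest change, and the 5 genes most like Hprt. Members and lists were chosen with earlier results of these data known. The fits were tested on simulated data. Sequences are RefSeq's (GRCm38.p6), matched by symbol for 8 of 8 genes. Sums of raw counts over cells were tested per experiment and position. Genomic libraries were not analysed here.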

Additional observations from a re-analysis of the deposited data

Results flagged for a closer look

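In scSET-seq, single experiments stood apart from the others of their antibody by the gap to the nearest value. Chance meets this rule in about 1 of 20 groups if values are normally distributed. The CPM here are skewed, with H3K27me3 experiments 8 to 10 near 0, so that rate need not hold. Over the cells that passed, among the 10 H3K27me3 experiments, experiment 3 was highest for Hprt (154 CPM), Aprt (1099 CPM), Adk (231 CPM) and Paics (325 CPM), and experiment 1 for Gart (320 CPM). Among the 6 H3K4me3 experiments, experiment 2 was highest for Hprt (379 CPM) and Ada (80.4 CPM). In H3K27me3 experiment 3, 97.6% of Hprt reads came from 1 cell.

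The KO clones differed from each other in Gart, with a log2 fold change of -0.64 for KO1 against KO2, and in Paics, with -0.50.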

How the results depend on the processing

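For KO against WT (4232 genes) the other call rule, an unadjusted p below 0.05 with a log2 fold change beyond 1, gave 2788, and leaving out a library gave 2054 to 4684, lowest without WT replicate 2 (2054) and WT replicate 1 (2355). KO1 against KO2 (858) gave 356 with DESeq2, 29 with 1 fit over all 54 libraries and 181 to 1361 with a library left out (340 and 181 without KO1 replicates 1 and 2, 1361 without KO2 replicate 1). In the fit over all 54 libraries SET-seq against in vitro gave 3485 (5397 before), Tn5 amounts 2191 (3563), 300 ng 435 (2063), 37 against 16 °C 3488 (7295) and ligation 3224 (7131). Leaving out a library gave 942 to 3622 for Tn5 amounts (942 and 2114 without 37 °C, 5 min replicates 2 and 1), 667 to 2676 for 300 ng (667 without 37 °C, 5 min replicate 2, 1093 without 300 ng replicate 2). It moved the other numbers by less than 1.5 times, to 3742 to 5626 for SET-seq, 6958 to 7389 for temperature, 4785 to 6749 for ligation, 3409 to 4442 for the antibody and 0 to 0 for position. DESeq2 gave 1361 for 300 ng. For position, 24 genes were called with DESeq2 and 24 without a filter. The cause was not tested.

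Same-numbered libraries had correlations of deviations from -0.242 to 0.880, and 300 ng (-0.242) and ligation (-0.111) were negative. With a replicate block 300 ng gave 1354 called genes. Among the members, the block changed the call of Paics for KO and of Pnp for Tn5 amounts (called with the block). Of the other named genes, Impdh1, Nanog and Slc29a2 lost their call for KO with the block. The crossed pairing, chosen after seeing the data, gave 3912 for 300 ng and 6858 for ligation.

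Of the members' values under alternatives, 742 kept direction and call, 18 gained a call, 47 lost it and 19 changed sign. All sign changes were of values without a call, except Paics for SET-seq, at 0.015 against 300 ng. The others were Adk for KO (0.12 against SET-seq of 10000 cells) and SET-seq (0.32 against 300 ng), Adk for KO1 against KO2 (0.0041 with DESeq2, 0.0014 with its size factors, 0.0031 unfiltered, 0.0032 blocked, 0.0035 with Rn45s, up to 0.14 with a library left out), Gart for 300 ng (0.0074 unfiltered), for SET-seq (-0.15 to 0.28, a library left out) and for ligation (-0.018 with DESeq2 and with its size factors, -0.025 to 0.069 with a library left out), and Pnp for temperature (-0.011 unfiltered, -0.012 to 0.082 with a library left out) and the antibody (-0.20 to 0.025 with a library left out). Against SET-seq of 10000 WT cells Nanog (1.09), Slc29a1 (-0.78) and Slc29a2 (-0.73) turned sign in KO.

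Depth limits the low members. Ada had 5 to 15 counts per KO library and 11 and 18 in the 37 °C, 5 min libraries. In the shallowest in vitro library (30 pg replicate 2) an Hprt count of 0 allows up to 9.28 CPM by 3 counts, and its two-sided exact 95% Poisson interval reaches 11.4 CPM, above the limit of 10 CPM, so its counts do not fix its class.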
